A study of Drosophila melanogaster with 2 samples.

Results

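Peaks of the GFP-tagged protein CG9437 were examined at 10 Drosophila melanogaster genes for chromatin remodelling and closely linked cofactors, kis, bon, brm, osa, mor, Iswi, Mi-2, Chd1, dom and Ino80, out of 13945 protein-coding genes on arms 2L, 2R, 3L, 3R, 4 and X. The genes were found by symbol in the Ensembl annotation (release 115), and all 10 matched 1 gene each. They were selected on earlier results of the same peak lists, in which kis and bon carried peaks among the strongest, so the heights and ranks given here describe the genes and are not tested. The data are from chromatin immunoprecipitation with sequencing (ChIP-seq) of whole embryos aged 0 to 16 hours, with males and females pooled, from 1 stable transgenic line in which GFP is fused to the C terminus of CG9437. The insertion is tied to hng1 in the labels, and the antibody label reads CG9437. The 2 biological replicates form 1 group, without a second condition or genotype. The labels disagree on one point: a description field names the samples input controls, but the assay, the antibody and the kinds of output file are those of a transcription factor ChIP. The lists are treated here as ChIP peaks.

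Chromatin remodellers use ATP to slide, evict, space or exchange nucleosomes, and they work as motor subunits within larger complexes. In flies the SWI/SNF motor Brm acts with Osa and Mor in the BAP complex, Iswi drives NURF, ACF and CHRAC, Mi-2 drives the NuRD and dMec complexes, and Domino and Ino80 are the split-ATPase motors of the Tip60 and INO80 complexes. Kismet and Chd1 are CHD-family motors linked to transcription elongation. The list label is broader than the motors, since Osa and Mor are subunits without ATPase activity and Bonus is a TIF1-family cofactor.

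The authors deposited a final list of 6091 peaks, made from both replicates, and 30000 candidate regions each for the pooled data and for each replicate. Each region has a signal value, which ran from 148 to 19974 in the final list with a median of 258. The final and pooled lists carry the same values for the same peaks. Otherwise signal cannot be compared between lists. Ranks by signal within a list are therefore given beside it, with 1 for the strongest, and for each summit the 2 replicate ranks stand in place of an error. The replicates' depth is unknown, as the lists carry no read numbers. Whether the replicates came from separate embryo collections is not stated beyond the label that calls them biological.

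Of the 10 genes, 6 had a final summit within 500 bp of one of their transcription start sites (TSSs), namely kis, bon, brm, Chd1, Ino80 and dom. The same was true of 25.2% of all protein-coding genes and of 49.8% of those with any pooled candidate in that window. A pooled candidate lay at a TSS of 9 of the 10 genes, against 50.6% of all protein-coding genes, and osa was the exception. Within the gene extended by 2 kb on each side, 9 of 10 had a final summit against 41.4% of all genes, and Iswi was the exception. The background share was higher for longer genes, at 35.8% for extended lengths under 10 kb, 61.3% for 10 to 40 kb and 65.5% for 40 kb or more. In these classes 1 of 2, 7 of 7 and 1 of 1 of the remodeller genes had such a summit. Since the genes were chosen with these peaks known, their counts are not evidence that remodeller genes stand apart. Heights differed widely within the list, with a median strongest promoter signal of 516 over the 9 genes with a candidate, against 147 over the 7055 protein-coding genes with one.

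The extended genes held 20 final summits of 6091, and 78 pooled candidates of 30000. By position, 7 of the 20 lay at a TSS of the remodeller gene itself and 5 within 500 bp of a TSS of another gene. A further 7 lay in introns of the remodeller gene, more than 500 bp from any TSS, and 1 in the upstream flank of mor. The strongest intronic summits of Mi-2 and osa fall in exons of other genes. At the lower end, the final summit of lowest signal belonged to Mi-2 (157, rank 5736), and the next member candidate, in osa, was just outside the final list (144, rank 6262).

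**Figure D1:**
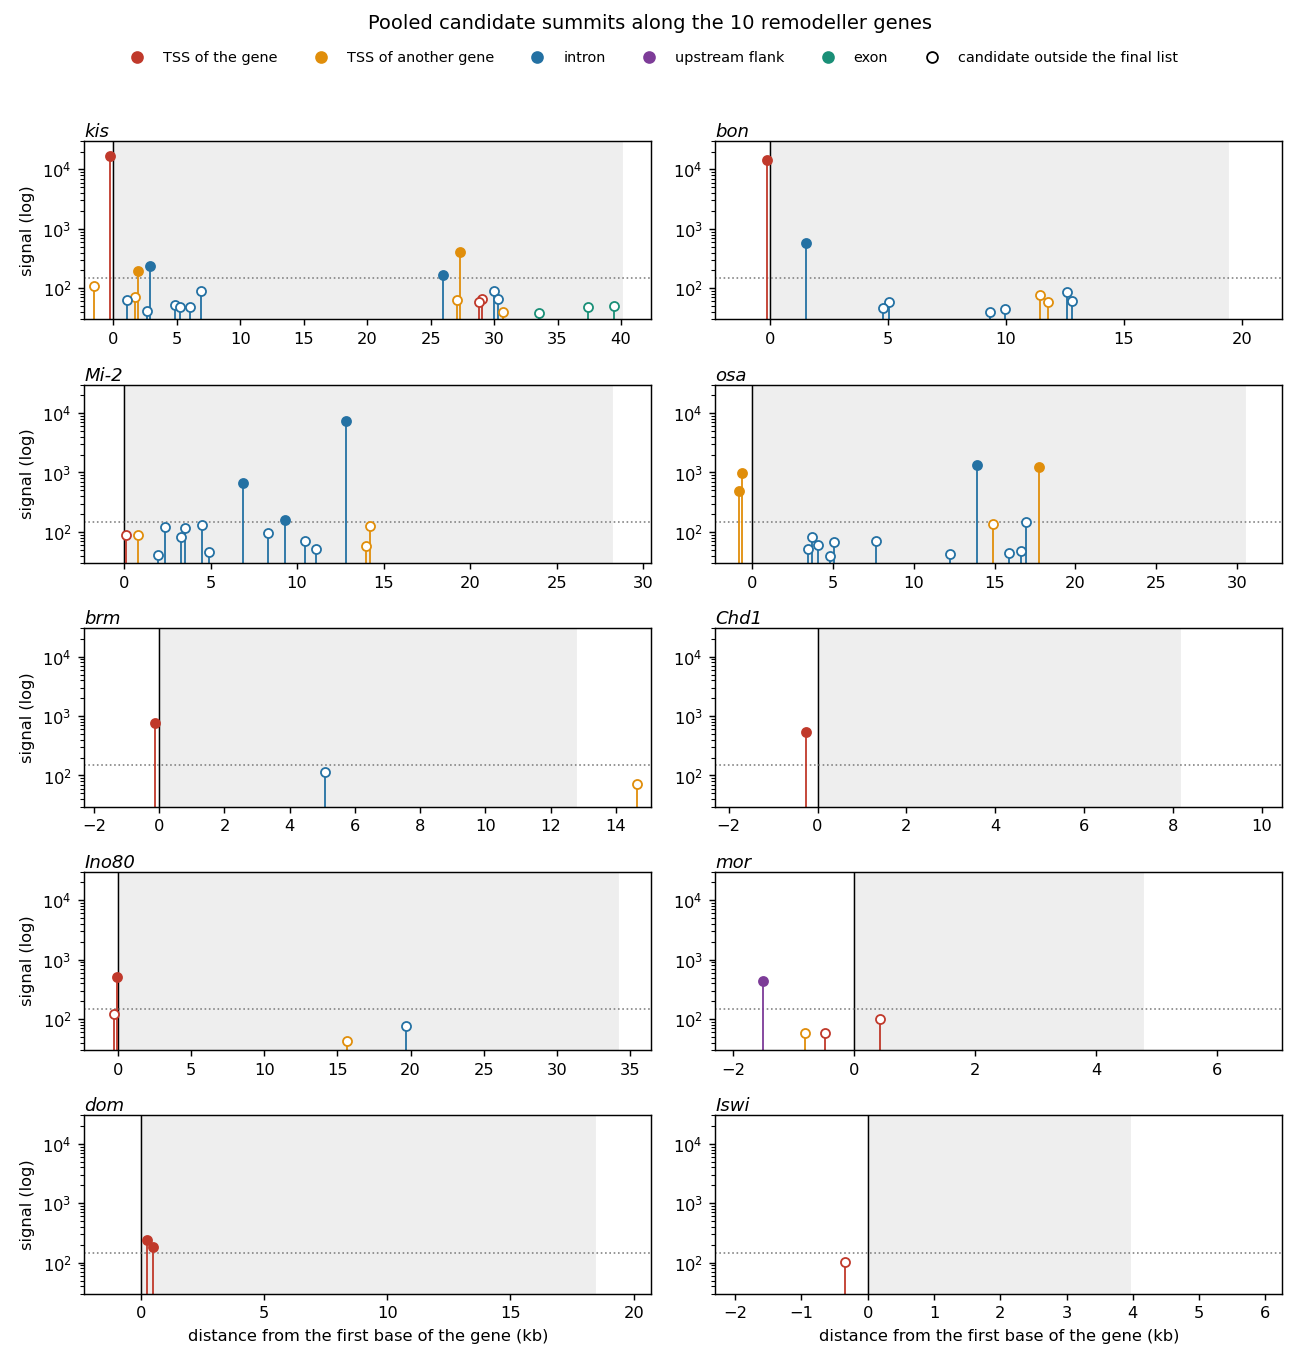
Pooled candidate summits along the 10 genes. The x axis is the distance in kb from the first base of the gene in the direction of transcription, the grey area is the gene, the y axis is the authors' signal on a log scale, filled points are in the final list, open points are not, colours give the position class, and the dotted line is the lowest final signal (148). The strong summits of kis and bon stand just upstream of the gene start, whereas the strongest of Mi-2 (7252) and osa (1356) stand inside the gene.

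kis, the gene of the CHD-family motor Kismet, had the strongest summit of the list. It is gene FBgn0266557 on the minus strand of 2L, from 210735 to 250823 in dm6, with 6 transcripts from 2 start sites. The summit lay at 251084, 261 bp upstream of the start site that 5 of the 6 transcripts use. Its signal was 16949 in the pooled list, with rank 7 of 30000. In the replicates' own lists its signal was 9262 at rank 6 in replicate 1 and 7782 at rank 9 in replicate 2. The region was 1325 bp wide, against a median of 530 bp in the final list. The other kis start site, at 221962, was a different case: the strongest pooled candidate within 500 bp had a signal of 65.4 (rank 15294) and was not final. That site had ranks of 19795 in replicate 1 and 6604 in replicate 2. The 5′ start of kis thus ranked far above the internal start in every list. In the pooled order, mRpL32 and qless share the summit just above that of kis (17441, rank 6), and adp and CG5742 the summit just below (16638, rank 8).

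The kis summit is not clear of other genes. It falls in the 3′ part of Rpp30, which encodes a subunit of the tRNA-processing enzyme RNase P, in an exon but outside the coding part. Rpp30 runs from 251039 to 252373 on the same strand as kis, and its own start site is 1289 bp upstream of the summit. A weaker pooled candidate lay 12 bp upstream of that start site (109, rank 8658), and it was not final. Further into kis, 4 lower summits were final. One lay 9 bp from the start of the long noncoding RNA gene lncRNA:CR44222 (408, rank 1619), and one 16 bp upstream of lncRNA:CR44218 (196, rank 4376), both within kis. The other two were intronic, at 2851 bp (234, rank 3481) and 25956 bp (170, rank 5212) from the gene start. The summit at lncRNA:CR44218 had the least even replicate ranks of the 20, at 7377 in replicate 1 and 2643 in replicate 2.

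bon encodes Bonus, the fly TIF1-family cofactor of nuclear receptors, and it came second among the 10 genes. It is gene FBgn0023097 on the plus strand of 3R, from 20593139 to 20612540, with 6 transcripts from 1 start site. The summit at 20593006 lay 133 bp upstream of that site. Its signal was 14456 at rank 12 in the pooled list, 7697 at rank 12 in replicate 1 and 6904 at rank 13 in replicate 2. The replicates placed it within 1 rank of each other. The region was 1075 bp wide. It lies between bon and the oppositely transcribed Pus1, a pseudouridine synthase gene, whose start site is 335 bp from the summit, and the peak cannot be given to one of the pair from its position. The next summit up in the pooled order was shared by btz and ALiX (14578, rank 11), and the next down was that of Hrs (13851, rank 13). A second final summit lay in an intron of bon, 1532 bp into the gene, with a signal of 581 at rank 936. Its ranks were 1001 in replicate 1 and 964 in replicate 2. The other 8 pooled candidates of bon had signals from 40.1 to 85.6 and were not final.

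Mi-2, the CHD-family motor of NuRD, had its strong summit inside the gene and a weak candidate at its start. The gene (FBgn0262519) spans 19882051 to 19910215 on the minus strand of 3L and has 2 start sites. The summit at 19897391 lay 12824 bp into the gene, with a signal of 7252 at rank 43. Its ranks were 50 in replicate 1 and 39 in replicate 2. Of the 20 final summits of the 10 genes, it was among 3 in the 200 strongest of all 6091 final peaks. The other summits were those of kis and bon, whose strong peaks were known when the genes were chosen. At the main start of Mi-2 the strongest candidate had a signal of 88.9 (rank 10815), at +120 bp, and was not final. Its ranks of 17470 in replicate 1 and 17858 in replicate 2 were lower still. The second start site, at 19888814, had no candidate within 500 bp in any list. Final summits of 667 (rank 767) and 157 (rank 5736) also lay in introns, 6902 and 9320 bp into the gene.

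All 3 of these summits lie in a second gene as well. Su(Tpl), which encodes the elongation factor ELL, runs from 19889120 to 19909410 on the same strand, wholly within Mi-2. The strongest summit falls in an exon of Su(Tpl) outside its coding part, 12019 bp from the start site of that gene, and the others in its introns. The Su(Tpl) start lies 805 bp from that of Mi-2. It had a pooled candidate 4 bp away (89.1, rank 10786), which was not final. The intronic summits are thus far from the annotated starts of Mi-2 and Su(Tpl). The noncoding gene lncRNA:CR32218 also starts within both genes. Its start is nearer to the strongest summit than theirs are, though more than 500 bp away, and that summit lies outside the noncoding gene. Pooled candidates within 500 bp of that start had signals of 127 (rank 7268) and 57.2 (rank 17981) and were not final. Position does not tell which gene the intronic summits belong to.

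Among the BAP genes, brm had a final promoter summit and osa and mor did not. brm, the SWI/SNF motor gene, is FBgn0000212 on the minus strand of 3L, from 15970082 to 15982869. Its summit at 15982984 lay 115 bp upstream, with a signal of 754 at rank 629 in the pooled list. It had 453 at rank 538 in replicate 1 and 299 at rank 868 in replicate 2. The same summit was 151 bp upstream of Arl1, a small GTPase gene transcribed the other way.

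osa encodes the large DNA-binding subunit that defines BAP, and it had no candidate within 500 bp of its only start site in any of the 4 lists. The gene (FBgn0261885) spans 17687818 to 17718350 on the minus strand of 3R. It had 4 final summits all the same. An intronic one, 13928 bp into the gene, had the highest signal (1356, rank 259), with ranks of 236 in replicate 1 and 350 in replicate 2. It falls in an exon of the noncoding gene lncRNA:CR46035, 727 bp from the start of that gene. Another lay 159 bp upstream of lncRNA:CR46036, also inside osa (1228, rank 308). The remaining pair lay upstream of osa, 656 bp (973, rank 423) and 856 bp (489, rank 1249) from its start. Their regions nearly coincide, running from 17718739 to 17719259 and from 17718739 to 17719261. Both summits were nearer to Pxt, a peroxidase-family gene transcribed the other way, at 448 and 248 bp from the Pxt start. With a window of 1000 bp in place of 500 bp, osa would count among the genes with a final promoter summit.

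mor, the gene of the core BAP subunit Moira, is FBgn0002783, from 15968134 to 15972913 on the minus strand of 3R. Its start is 385 bp from that of Hel89B, which encodes the Mot1-type ATPase and runs the other way. The strongest candidate within 500 bp of the mor start was low and unsteady in place. In the pooled list it was 102 at rank 9248, at +419 bp. In replicate 1 it was 70.2 at rank 7074, at -193 bp (negative values are upstream), and in replicate 2 it was 102 at rank 4003, at +275 bp. None was within 100 bp of another. Alone in replicate 2 was it among the 6091 strongest of a list. The only final summit of the extended gene lay 1515 bp upstream of mor, in an intron of Hel89B and 1130 bp into it (435, rank 1463).

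Chd1 and Ino80 had promoter summits of similar rank. Chd1, a CHD-family motor gene (FBgn0250786, minus strand of 2L, from 2979562 to 2987723), had its only pooled candidate at 2987979, 256 bp upstream. The signal was 548 at rank 1037 in the pooled list, 319 at rank 952 in replicate 1 and 236 at rank 1253 in replicate 2. Bem46, transcribed the other way, starts 137 bp from the summit and is the nearer of the pair. Ino80, the motor gene of the INO80 complex (FBgn0289122, minus strand of 3R, from 19368995 to 19403153), had a summit at 19403199, 46 bp upstream. The signal was 516 at rank 1147 in the pooled list, 348 at rank 829 in replicate 1 and 171 at rank 1955 in replicate 2. Aptx, which encodes the DNA repair protein aprataxin, starts 256 bp away in the other direction. Chd1 ranked above Ino80 in replicate 2 and below it in replicate 1, so their order is not settled.

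dom, the Tip60-complex motor gene (FBgn0020306, plus strand of 2R, from 21323430 to 21341847), had 2 final summits, both downstream of its start. They lay at +259 bp (244, rank 3287) and +477 bp (184, rank 4746), the second near the edge of the 500 bp window. Their regions overlap, running from 21323424 to 21323953 and from 21323642 to 21324171. The start site of CG30394, transcribed the other way, was 369 bp from the first summit. The ranks of the first were 3300 in replicate 1 and 3491 in replicate 2, and those of the second 5826 and 3497. Iswi (FBgn0011604, plus strand of 2R, from 12636671 to 12640628) had no final summit. Its only pooled candidate lay 349 bp upstream, with a signal of 103 at rank 9212. The replicates gave 59.8 at rank 8365 and 52.5 at rank 9563, at nearby positions. That candidate was 181 bp upstream of Mvk and of CG33672.

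**Figure D2:**
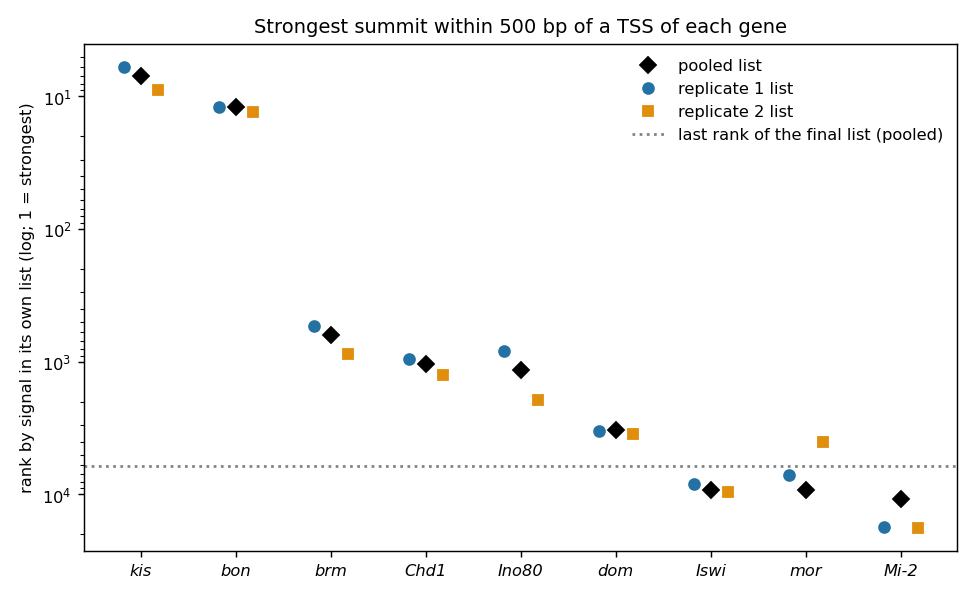
Rank by signal of the strongest summit within 500 bp of a TSS, for the 9 genes with one (osa had none), on a log axis with rank 1 at the top. Diamonds are the pooled list, circles and squares the lists of replicates 1 and 2, and the dotted line is rank 6091, the last of the final list. kis and bon stay within ranks 6 to 13 in all 3 lists, brm, Chd1, Ino80 and dom lie between 538 and 3491, and Iswi, mor and Mi-2 lie at rank 4003 or weaker.

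The order kis, bon, brm was the same in the pooled list and in both replicates. Below them, Chd1 and Ino80 changed places between replicates, dom followed, and the order of Iswi and mor differed between the pooled list and the replicates. All 20 final summits had a candidate within 100 bp in each replicate. For the 7 promoter summits this was 7 of 7, against 90.9% of all final promoter summits, and it follows in large part from how the final list was made. The replicate summits lay at most 29 bp (replicate 1) and 46 bp (replicate 2) from the pooled ones. The ratio of the 2 replicate ranks ran from 1.04 at the intronic bon summit to 2.79 at the kis summit near lncRNA:CR44218. Replicate 1 ranked 11 of the 20 higher, and replicate 2 ranked 9 higher. Among the 6091 strongest of each replicate's own list were 18 of the 20 in replicate 1 and 19 in replicate 2. This too follows in large part from how the final list was made, and the share over all final summits was not taken.

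**Figure D3:**
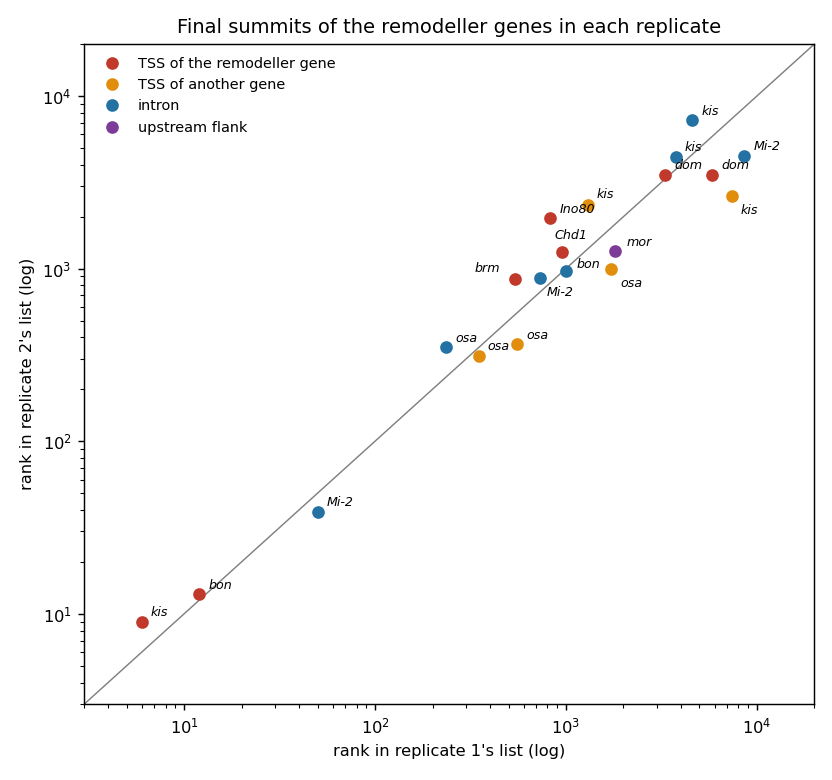
Ranks of the 20 final summits in the candidate lists of replicate 1 (x axis) and replicate 2 (y axis), both log, with the line of equal rank. Colours give the position class and labels the remodeller gene. The points run along the line from kis, bon and the intronic Mi-2 summit at the strong end to the weaker kis, dom and Mi-2 summits at the other end.

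The promoter summits shared 2 features of position. First, they mostly lay in front of the gene: for 5 of the 6 genes the strongest final promoter summit was upstream of the nearest start site, dom being the exception, against 83.9% of the 3511 protein-coding genes with such a summit. Second, most lay near the start of another gene as well. For bon, brm, Chd1, Ino80 and dom, 5 of 6, the summit was also within 500 bp of the start of another protein-coding gene, against 58% of the 3511. At bon, brm, Chd1 and Ino80 it lay between the head-to-head start sites, which are 468, 266, 393 and 302 bp apart. The kis summit was the one with no other start site in the window. With 6 genes, neither count is read as a difference from the background.

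Sequence at the summits was searched for 5 short words, on both strands, in the 101 bp centred on each summit. The word ACGTAA, whose reverse complement is TTACGT, was singled out earlier at these same peaks and is therefore described only. It was present at 2 of the 20 summits, those of kis and of osa 448 bp from Pxt, against 10.2% of all 6091 final summits. At the kis summit it occurs as an overlapping pair, the copies sharing 1 base, 30 to 40 bp from the summit on the side away from kis. That 11-base pair was found in 30 of the 6091 windows (0.493%), a count made after the kis sequence was seen. At bon the word was absent from the 101 bp window but present 56 to 61 bp from the summit, towards bon. In windows of 201 bp it was at 3 of the 20 summits, against 15.4% of all final summits. The intronic Mi-2 summit, the third strongest, had no copy in either window. The share over the 200 strongest final summits was 54.0% in 101 bp. CGATA, the core of the element bound by Dref and BEAF-32, was at 3 of 20 against 15.9% of all final summits. TATAAA was at 5 of 20 against 22.2%, GAGAG at 2 of 20 against 9.16%, and TATCGATA at 0 of 20 against 2.04%. CGATA and TATCGATA overlap, since the longer word holds the shorter. The windows had a median G+C content of 30.2%, from 18.8% to 55.4%, against a median of 32.7% over all final summits. A word that is absent says only that those letters are not in the window.

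The sequences below are examples from promoter summits and from the osa upstream region, and they differ in length and placement. The kis stretch is limited to the ACGTAA pair and its flanks and leaves out the summit, and dom is not shown. Each sequence is from the dm6 reference, 5′ to 3′ on the strand of the remodeller gene. Capitals mark every copy of the 5 words on either strand. For kis, 30 bases with the ACGTAA pair are shown (chr2L:251105-251134, minus strand). For bon, 151 bases from 50 bp upstream to 100 bp downstream of the summit are shown, with 1 copy of the word as its reverse complement (chr3R:20592956-20593106, plus strand). The others are the 101 bp at the summits of brm (chr3L:15982934-15983034, minus strand), Chd1 (chr2L:2987929-2988029, minus strand) and the osa upstream region near Pxt (chr3R:17718956-17719056, minus strand), and the 96 bp of the Ino80 window outside the gene (chr3R:19403154-19403249, minus strand). The osa region holds 2 separate copies of the word and a CGATA, Chd1 a CGATA read as its reverse complement, brm a TATAAA, and Ino80 none of the 5 words.
kis: aagccggctaACGTAACGTAAtggttttgg
bon: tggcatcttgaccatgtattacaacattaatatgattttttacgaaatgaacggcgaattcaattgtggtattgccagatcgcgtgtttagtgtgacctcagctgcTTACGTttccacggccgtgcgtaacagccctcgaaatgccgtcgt
brm: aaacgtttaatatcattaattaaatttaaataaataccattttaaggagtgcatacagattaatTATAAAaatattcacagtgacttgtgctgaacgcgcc
Chd1: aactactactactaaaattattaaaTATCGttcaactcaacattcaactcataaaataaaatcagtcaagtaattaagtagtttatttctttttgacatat
osa: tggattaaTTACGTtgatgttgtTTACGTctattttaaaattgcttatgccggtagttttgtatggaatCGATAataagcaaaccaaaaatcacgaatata
Ino80: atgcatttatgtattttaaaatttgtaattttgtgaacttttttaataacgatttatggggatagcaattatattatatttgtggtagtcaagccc

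The partners of these proteins were looked up from a list of 42 further genes, drawn from textbook complex membership with earlier results of these data known. A final promoter summit was present at 13 of 42, against the 25.2% of all protein-coding genes given above. A pooled candidate lay at a start site of 32 of the 42, against 50.6% of all protein-coding genes. Among those 32, the 13 with a final summit compare with 49.8% of all genes with a candidate. The shares lie above the background in the first and second of these counts and below it in the third, and none was tested. Their median strongest promoter signal was 142 over those 32, close to the 147 of all genes with a candidate, and the strongest of them ranked 576. By complex, final promoter summits were at 2 of 7 BAP and PBAP genes, 2 of 7 ISWI-complex genes and 3 of 6 CHD and NuRD-type genes. They were also at 5 of 16 INO80 and Tip60 genes and 1 of 6 other ATPase genes. None came near kis or bon in height.

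pont, one of the paired AAA+ ATPases shared by the INO80 and Tip60 complexes, led the subunit list with a signal of 802 at rank 576, at a summit shared with Sirt6. Its sister rept had 244 (rank 3283), shared with mRpL21. Gas41, the YEATS-domain subunit, had 458, shared with the cohesin gene SA1, and the actin-related Arp5 had 352. Among ISWI partners, Caf1-55, a histone-binding WD-repeat protein also found in NuRD, had 477, and E(bx), the large NURF subunit, had 294. Among BAP subunits, Bap60 had 440 and Snr1 432. Among CHD and NuRD-type genes, MTA1-like had 419, MEP-1 364 and MBD-like 318. XNP, the fly ATRX-type motor, had 288. Of the 13 final promoter summits, 10 also lay within 500 bp of a start of another protein-coding gene, against 58% over all genes with such a summit. polybromo, Ing3, YL-1, Marcal1 and okr had no candidate within 500 bp of a start site in any list. A further 5 had one in 1 replicate only. The extended genes of 24 of the 42 held a final summit, against 41.4% of all genes. By extended length it was 16 of 32 under 10 kb, 7 of 8 for 10 to 40 kb and 1 of 2 for 40 kb or more. The background shares in these classes were 35.8%, 61.3% and 65.5%. For okr and Hel89B the only such summit has the signal of one already described, at Chd1 (548) and in the flank of mor (435).

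**Figure D4:**
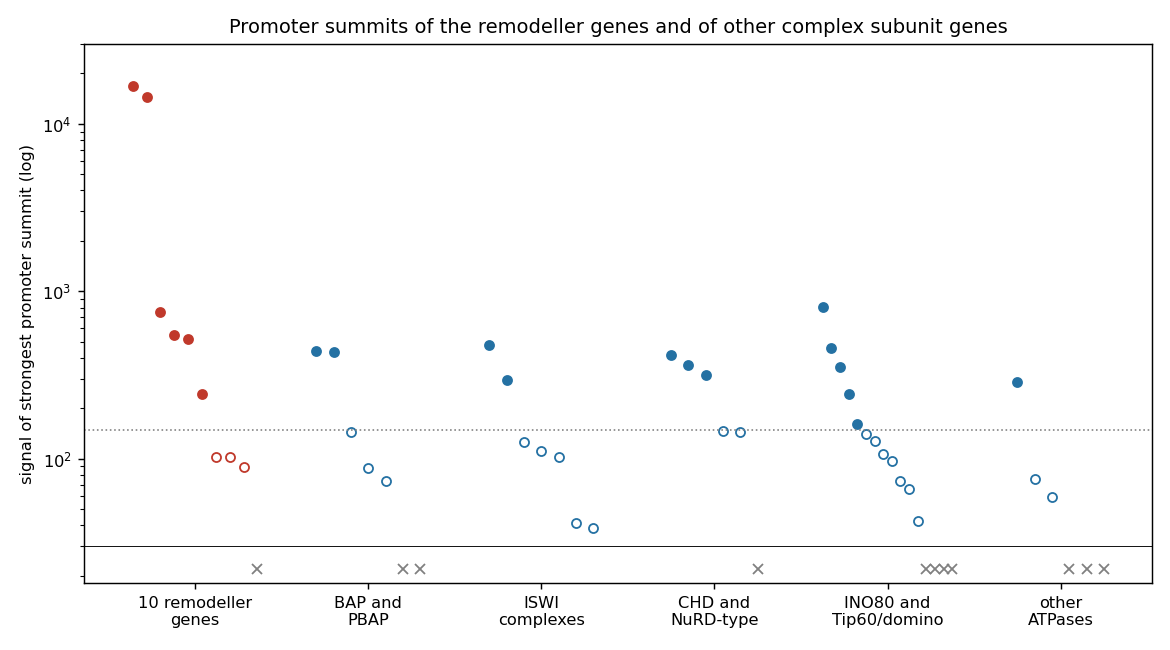
Signal of the strongest pooled summit within 500 bp of a TSS (log axis) for the 10 remodeller genes in red and for 42 other genes in blue, by complex. Each point is 1 gene, filled if in the final list, the dotted line is the lowest final signal (148), and crosses under the line mark genes with no pooled candidate. kis (16949) and bon (14456) stand at the top, and every other gene shown lies at or below 802.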

How the data were processed

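The labels give dm6 as the assembly. The deposited manifests trace the lists to the replicate alignments and a common control. No source used here names the aligner, the peak caller or the threshold on the irreproducible discovery rate. The authors' signal value of each peak was used to rank peaks within its list. The deposited −log10 q value, at its ceiling of 4.07 for all 20 summits described, was not used. The final list equals the 6091 pooled candidates of highest signal.

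Summits were placed on genes of Ensembl release 115 other than transposable elements, whose assembly is that of the files, with sequence from the RefSeq copy of the same assembly. A summit counted for every gene with a TSS within 500 bp. Python 3.11.15 with numpy 2.4.6, pandas 2.3.3 and matplotlib 3.10.9 was used, and the placement functions were tested on simulated data. The 10 genes, the word ACGTAA and the lists were chosen with earlier results of these data known. With 1 group and members chosen on their peaks, no test was made. Named genes are the 10, the other genes with a TSS within 500 bp of their final promoter summits, the genes next to kis and bon in pooled rank, the 12 subunit genes with the strongest promoter summits and those with no candidate. Genes that overlap a summit, lncRNA:CR32218 and a few candidates outside the final list were named after their values were seen. Alternatives were other windows, extensions and summit distances, the stronger part of the list, each replicate alone and nearest TSS only.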

Additional observations from a re-analysis of the deposited data

How the results depend on the processing

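Window width decided the promoter count. With 250 bp from a TSS, 3 of 10 genes had a final promoter summit (bon, brm and Ino80) in place of 6, since kis, Chd1 and dom lie just past it, and 3 of those 3 summits were found in both replicates. With 1000 bp, 7 genes had one. With no extension, 5 genes in place of 9 held a final summit, and 12 summits in place of 20, as upstream summits drop out. The share of all protein-coding genes was not taken at these other windows and extensions, so these counts have no background beside them. ACGTAA was at 1 of 7 final promoter summits. It was at 0 with 25 bp to each side or 250 bp from a TSS. With 100 bp to each side or 1000 bp from a TSS it was at 2. Over all 3323 final promoter summits the share was 5.78% with 25 bp, 11% with 50 bp and 17.1% with 100 bp to each side. The counts for the 10 genes are too small to rank. Each replicate's 6091 strongest candidates gave 6 to 7 genes with a promoter summit, 9 to 9 with one in the extended gene, 21 to 24 summits, 1 to 2 promoter summits with ACGTAA and 15 to 15 subunit genes in place of 13. Under the other alternatives run for each count, the value stayed within 1.5 times of the one reported. These included the 3045 stronger peaks for every count and, for the promoter counts of the 10 genes and of the subunit genes alone, nearest TSS only. The rank of the strongest promoter summit moved by more than 1.5 times for Ino80, Mi-2 and mor in a replicate, and for no other gene. Replicate depth is unknown. No paired analysis was possible because there is 1 group.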
